A study of Mus musculus with 10 samples.

Results

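This account covers 7 genes, 6 transcription factors of the primitive endoderm and 1 cell-surface receptor, among 31053 genes counted in mouse embryonic stem (ES) cells. The transcription factors were the zinc-finger proteins Gata6 and Gata4, the HMG-box proteins Sox17 and Sox7, and the forkhead proteins Foxq1 and Foxa2. The receptor was Pdgfra, which binds platelet-derived growth factors. They were chosen by name because their levels had been seen to differ between cells with and without doxycycline. Their levels with and without doxycycline are therefore given as a description, without a test.

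The cells were E14 mouse ES cells stably carrying an Esrrb construct that doxycycline (DOX) switches on. Esrrb is a nuclear receptor that sustains naive pluripotency. Of the 10 libraries, 3 came from cells kept for 96 h in N2B27 medium with DOX after 2iL was withdrawn (96 h DOX). Another 3 came from cells kept for 96 h in the same medium without DOX (96 h no DOX), and 4 from cells held in N2B27 with 2iL and no DOX (2iL). 2iL combines the GSK3 inhibitor CHIR99021, the MEK inhibitor PD0325901 and the cytokine LIF. All 3 groups carried the construct, and cells without it or cells given DOX in 2iL were not analysed here, so effects of DOX and of the construct cannot be told apart. Whether the line was 1 clone is not stated in the sources used here. Titles named experiments 1 and 2 and a library number, written here as exp1_1, exp1_2, exp2_1 and exp2_2. Nothing stated that libraries came from separate cultures, so a p-value here measures only the spread among libraries, which may be technical.

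Primitive endoderm is the layer of the blastocyst that lines the cavity and later forms the visceral and parietal endoderm of the yolk sacs. It separates from the pluripotent epiblast under FGF and ERK signalling, with Gata6 rising in primitive endoderm and Nanog persisting in the epiblast. Gata4, Sox17 and Sox7 follow Gata6 in that lineage, and Pdgfra marks its cells at the surface. Foxa2 acts in visceral endoderm and also in the node and definitive endoderm, and Sox17 is likewise shared with definitive endoderm. Foxq1 is known in the mouse mainly for its role in the hair follicle.

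Libraries held 1253620 to 4715450 reads in genes (median 3334325), and the shallowest was 96 h DOX exp1_2. That library differed from the other 9 in composition. Of its gene reads, 14.8% fell on Gm42418, a locus within ribosomal RNA sequence, compared with 3.39% to 6.61% in the others. A list of 11 fibroblast markers summed to 2005 CPM in it, compared with 17.0 to 27.2 CPM in the other 2 DOX libraries, 24.3 to 26.9 CPM without DOX and 3.98 to 13.1 CPM in 2iL. DOX levels are therefore given with and without it. Esrrb itself averaged 18.1 ± 7.68 CPM with DOX, 23.0 ± 9.20 CPM without DOX and 314 ± 62.4 CPM in 2iL (SD, n = 3, 3 and 4). The difference of DOX from no DOX was not called (edgeR's quasi-likelihood test, adjusted p = 0.704). Reads at the 3′ end of Esrrb would register the construct only if it kept that stretch, and the sources used here do not say so. These reads therefore do not check the induction.

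All 7 genes were at or close to 0 in the absence of DOX and had reads in each DOX library, from 4 reads of Sox7 to 289 reads of Foxq1. Levels are TMM-scaled CPM, the reads of a gene relative to all gene reads of its library after correction for library composition. Each gene is compared with itself only, since the reads came from 3′ ends and were not scaled by length. The lowest DOX library exceeded the highest 96 h no-DOX library for 7 of 7 genes, a pattern that 9.98% of the 11215 tested genes showed. It also exceeded every 2iL library for 7 of 7, which 3.2% of tested genes showed. These counts follow from how the genes were chosen. The summed level of the 7 genes was 149, 249 and 168 CPM in DOX libraries exp1_1, exp1_2 and exp2_1. It was 2.34, 4.51 and 1.76 CPM in no-DOX libraries exp1_1, exp1_2 and exp2_2, and 2.21 to 7.04 CPM in the 2iL libraries. In RNA from whole cultures, more cells that carry a transcript and more transcript per cell cannot be told apart.

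**Figure D1:**
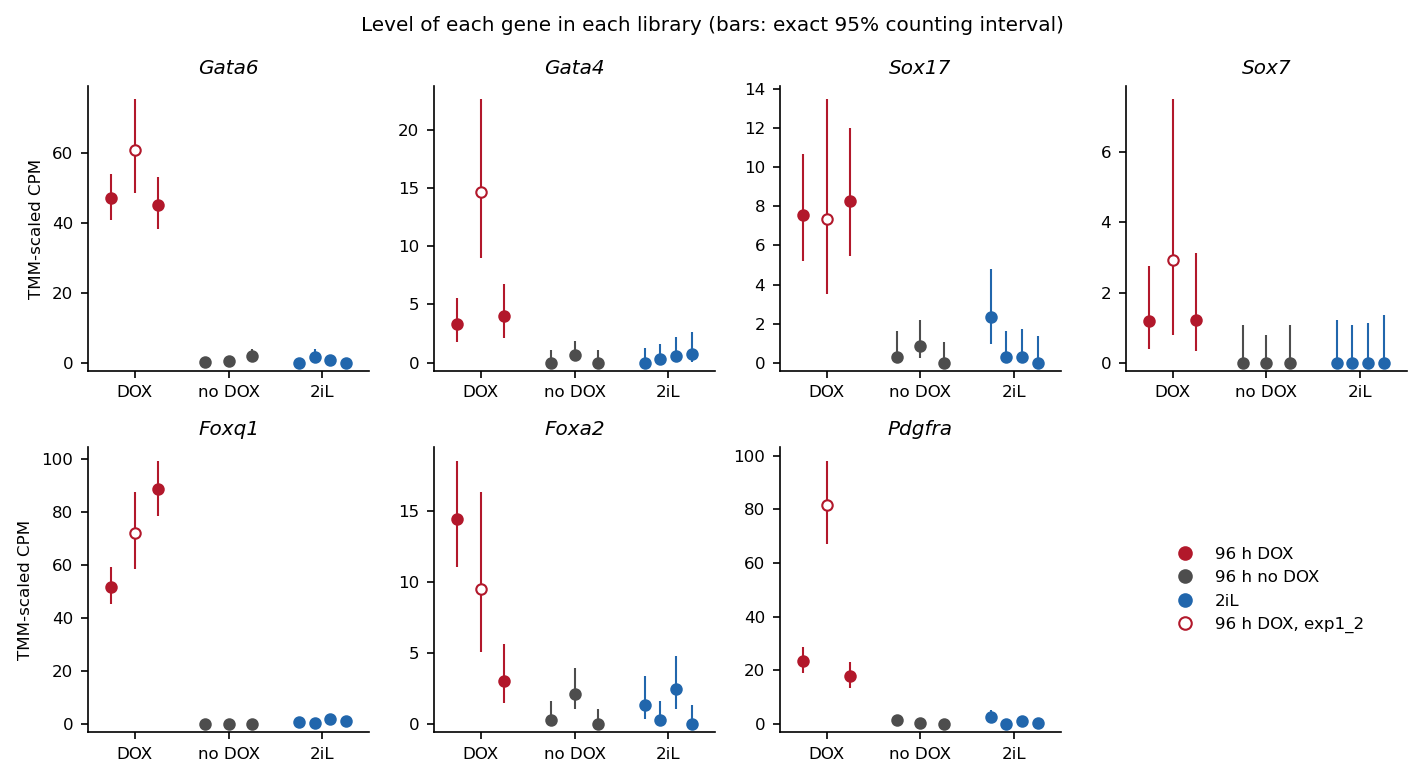
Level of each of the 7 genes in each library, in TMM-scaled CPM on a linear axis that differs between panels; points are libraries, bars are exact 95% counting intervals, and the open circle is 96 h DOX exp1_2. In every panel the 3 DOX libraries lie above the 7 others, and for Gata4 and Pdgfra the open circle lies well above the other 2 DOX libraries (14.7 and 81.4 CPM).

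Gata6 (ENSMUSG00000005836, chromosome 18, 11052064 to 11085635, plus strand, GRCm38/mm10) is the factor at the head of the primitive endoderm programme. It stood at 47.1, 60.9 and 45.3 CPM in DOX libraries exp1_1, exp1_2 and exp2_1. It stood at 0.292, 0.430 and 1.76 CPM in no-DOX libraries exp1_1, exp1_2 and exp2_2, and at 0, 1.75, 0.612 and 0 CPM in 2iL libraries exp1_1, exp1_2, exp2_1 and exp2_2. The DOX libraries were close to each other and far from the rest, and the no-DOX and 2iL libraries overlapped. The mean with DOX was 51.1 ± 8.53 CPM (SD, n = 3) and 46.2 ± 1.27 CPM without exp1_2 (n = 2), against 0.826 ± 0.808 CPM without DOX (n = 3) and 0.590 ± 0.824 CPM in 2iL (n = 4). Pooled over libraries, the DOX level was 62 times the no-DOX level (exact 95% counting interval 32.4 to 137), from 430 and 9 reads. Leaving out DOX exp1_2 gave a ratio of 59.1. These intervals cover counting error only.

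Reads were also counted for 1010001N08Rik, a non-coding transcript annotated on the opposite strand across Gata6. It had 26, 4 and 28 reads in the same 3 DOX libraries, 0 in each no-DOX library and 0, 0, 1 and 0 in 2iL. Its pooled DOX level was at least 25.1-fold higher than without DOX, computed against a floor of 3 reads over the no-DOX group. The sources used here do not state whether counting used the strand, so reads from Gata6 and from this transcript cannot be told apart.

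Gata4 (ENSMUSG00000021944, chromosome 14, 63198922 to 63271692, minus strand) is the second GATA factor of extraembryonic endoderm. It stood at 3.31, 14.7 and 3.98 CPM in DOX libraries exp1_1, exp1_2 and exp2_1, from 14, 20 and 13 reads. It stood at 0, 0.644 and 0 CPM in the no-DOX libraries exp1_1, exp1_2 and exp2_2, all 3 of its reads lying in exp1_2, and at 0 to 0.736 CPM in 2iL. The level in DOX exp1_2 was several times that of the other DOX libraries, and its counting interval (8.96 to 22.7 CPM) did not meet theirs (1.81 to 5.56 and 2.12 to 6.80 CPM). The mean with DOX was 7.32 ± 6.38 CPM (n = 3) and 3.65 ± 0.47 CPM without that library (n = 2), against 0.215 ± 0.372 CPM without DOX (n = 3). The pooled ratio of DOX to no DOX was 20.3 (6.55 to 102), and 13.8 (4.25 to 71.1) without DOX exp1_2. Neil2, a DNA glycosylase gene 5066 bp away on the same strand, had 16, 2 and 17 reads with DOX and 11, 33 and 62 without, so its reads did not follow those of Gata4.

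Sox17 (ENSMUSG00000025902, chromosome 1, 4490931 to 4497354, minus strand) was the most even of the 7 among DOX libraries. It stood at 7.57, 7.34 and 8.26 CPM in DOX libraries exp1_1, exp1_2 and exp2_1, against 0.292, 0.859 and 0 CPM in no-DOX libraries exp1_1, exp1_2 and exp2_2. In 2iL it stood at 2.32, 0.291, 0.306 and 0 CPM, so 1 library of experiment 1 held 7 of the 9 reads of that group. The DOX libraries lay above all others, and DOX exp1_2 was their lowest value. The mean with DOX was 7.72 ± 0.48 CPM (n = 3) and 7.92 ± 0.49 CPM without exp1_2 (n = 2), against 0.384 ± 0.437 CPM without DOX (n = 3). The pooled ratio was 17.9 (7.32 to 56.9).

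Sox7 (ENSMUSG00000063060, chromosome 14, 63943673 to 63950732, plus strand), the closest relative of Sox17 in this group, was the faintest. It had 5, 4 and 4 reads in DOX libraries exp1_1, exp1_2 and exp2_1 (1.18, 2.93 and 1.22 CPM) and 0 reads in each of the 7 other libraries. The pooled DOX level was at least 5.62-fold higher than without DOX, or at least 4.60-fold without DOX exp1_2, against a floor of 3 reads over the no-DOX group. It was the only 1 of the 7 below the filter on low counts, so no model was fitted to it. The other 6 passed that filter through their DOX libraries. Pinx1, 23814 bp away on the same strand, had 93, 90 and 42 reads with DOX and 60, 96 and 59 without.

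Foxq1 (ENSMUSG00000038415, chromosome 13, 31556134 to 31560976, plus strand) was separated most widely between DOX and no DOX. It stood at 51.8, 71.9 and 88.5 CPM in DOX libraries exp1_1, exp1_2 and exp2_1, from 219, 98 and 289 reads. It had 0 reads in each of the 3 no-DOX libraries, and 0.663, 0.291, 1.84 and 1.10 CPM in 2iL, from 12 reads in all. Here the DOX library of experiment 2 was the highest, the 2iL libraries were low but not empty, and the no-DOX libraries were empty. The mean with DOX was 70.7 ± 18.3 CPM (n = 3) and 70.1 ± 25.9 CPM without exp1_2 (n = 2). The pooled level was at least 262-fold higher than without DOX, and at least 260-fold without DOX exp1_2. Against 2iL the pooled ratio was 70.9 (40.3 to 138). Foxf2, a forkhead gene 64840 bp away on the same strand, had 3, 1 and 6 reads with DOX and 0 in the 7 other libraries (at least 4.33-fold higher than without DOX). A530084C06Rik, annotated on the opposite strand across Foxq1, had 0, 0 and 5 reads with DOX and 0 elsewhere.

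Foxa2 (ENSMUSG00000037025, chromosome 2, 148042877 to 148046969, minus strand) varied most between DOX exp1_1 and DOX exp2_1. It stood at 14.4, 9.54 and 3.06 CPM in DOX libraries exp1_1, exp1_2 and exp2_1, from 61, 13 and 10 reads. It stood at 0.292, 2.15 and 0 CPM in no-DOX libraries exp1_1, exp1_2 and exp2_2, and at 1.33, 0.291, 2.45 and 0 CPM in 2iL. The lowest DOX value lay just above the highest 2iL value, and its counting interval (1.47 to 5.63 CPM) contained both that value and the highest no-DOX value. The mean with DOX was 9.01 ± 5.71 CPM (n = 3) and 8.75 ± 8.04 CPM without exp1_2 (n = 2), against 0.813 ± 1.16 CPM without DOX (n = 3). The pooled ratio was 9.91 (5.27 to 20.6).

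Pdgfra (ENSMUSG00000029231, chromosome 5, 75152292 to 75198215, plus strand) is a receptor tyrosine kinase and the surface marker by which primitive endoderm cells are commonly sorted. It stood at 23.4, 81.4 and 17.8 CPM in DOX libraries exp1_1, exp1_2 and exp2_1, against 1.46, 0.430 and 0 CPM in no-DOX libraries exp1_1, exp1_2 and exp2_2. In 2iL it stood at 2.65, 0, 1.22 and 0.368 CPM. The DOX libraries lay above all others, but exp1_2 lay far above the other 2. The mean with DOX was 40.9 ± 35.2 CPM (n = 3) and 20.6 ± 4.02 CPM without exp1_2 (n = 2), against 0.631 ± 0.752 CPM without DOX (n = 3). The pooled ratio of DOX to no DOX was 49.7 (23.8 to 125), and 34.4 (16.3 to 87.0) without DOX exp1_2.

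Fibroblasts also express Pdgfra, and both Pdgfra and the summed fibroblast markers were highest in DOX exp1_2. Between the other 2 DOX libraries the order of Pdgfra and of the marker sum differed, and 2 libraries are too few to relate them. In DOX exp1_2, where Pdgfra stood at 81.4 CPM, the summed fibroblast list stood at 2005 CPM, led by the collagen gene Col1a2 at 1185 CPM. In the other 2 DOX libraries, where Pdgfra stood at 23.4 and 17.8 CPM, the same list summed to 17.0 and 27.2 CPM, below and just above the range of the no-DOX libraries (24.3 to 26.9 CPM). Of the 11 listed markers, 2 (Postn and Dcn) had 0 reads in both of those libraries, and the rest had reads in at least 1. Mean levels of single markers there lay both above and below those without DOX. Col1a1 averaged 7.51 CPM there (lowest DOX library 0.947 CPM) and 2.09 CPM without DOX (highest library 4.97 CPM). Thy1 averaged 5.59 CPM there and 11.3 CPM without DOX. The part of fibroblast RNA in the higher Pdgfra and Gata4 values of DOX exp1_2 was not tested. Without that library, both Pdgfra and Gata4 lay above every no-DOX and 2iL library, which follows from how the genes were chosen.

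**Figure D2:**
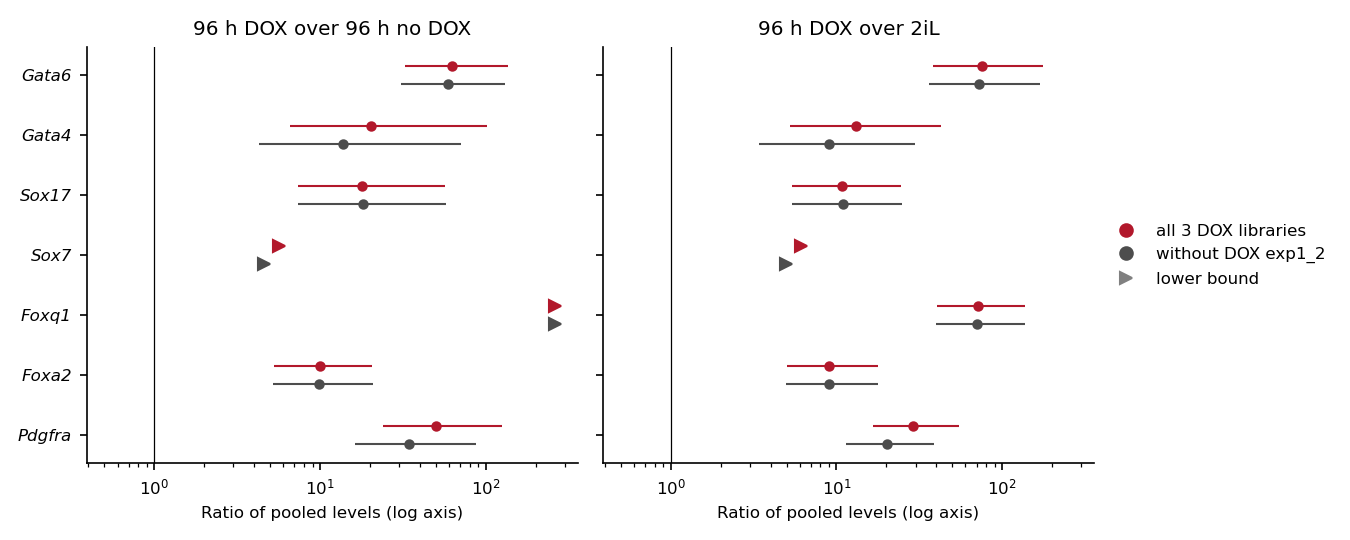
Ratio of the pooled level in 96 h DOX libraries to that in 96 h no-DOX libraries (left) and 2iL libraries (right) for each gene, on a log axis; points are ratios with exact 95% counting intervals, triangles are lower bounds where the compared group had 0 reads, and dark symbols leave out 96 h DOX exp1_2. Against no DOX the ratios run from 9.91 for Foxa2 to a bound of 262 for Foxq1, and leaving out the library moves Gata4 (20.3 and 13.8) and Pdgfra (49.7 and 34.4) most.

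On the model's log2 scale, the difference between DOX and no DOX was 5.93 ± 0.67 for Gata6, 5.93 ± 0.88 for Pdgfra and 4.62 ± 1.22 for Gata4 (SE). It was 4.10 ± 1.10 for Sox17 and 3.31 ± 1.08 for Foxa2. Each value rests on 3 to 11 no-DOX reads, so single no-DOX libraries moved it. It became 6.96 for Gata6 without no-DOX exp2_2 and 7.15 for Pdgfra without no-DOX exp1_1. Without no-DOX exp1_2 it became 7.47 for Gata4, 5.39 for Sox17 and 5.61 for Foxa2. Without DOX exp1_2 it became 3.71 for Gata4 and 4.98 for Pdgfra. For the 6 fitted genes the difference was positive in each of 20 alternative fits, which follows from the choice of genes.

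Both experiments showed the separation. In experiment 1 (2 libraries a group), Gata6 averaged 54.0 CPM with DOX and 0.361 CPM without, Foxq1 61.9 CPM with DOX and 0 without, and Pdgfra 52.4 CPM with DOX (23.4 CPM without exp1_2) and 0.946 CPM without. In experiment 2 (1 library a group), Gata6 stood at 45.3 CPM with DOX and 1.76 CPM without, Foxq1 at 88.5 CPM with DOX and 0 without, and Pdgfra at 17.8 CPM with DOX and 0 without. Foxa2 stood at 12.0 CPM with DOX and 1.22 CPM without in experiment 1, and 3.06 CPM with DOX and 0 without in experiment 2.

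Removal of 2iL for 96 h without DOX left these genes near 0. The genes had been chosen for low levels in these same no-DOX libraries, so the values are again a description, with no test. Foxq1 had 0 reads in 3 of 3 no-DOX libraries, against 12 reads spread over 4 of 4 2iL libraries. Its no-DOX level was at least 3.70-fold lower, against a floor of 3 reads over the no-DOX group. For Gata6 the pooled ratio of no DOX to 2iL was 1.22 (counting interval 0.417 to 3.63), from 9 and 8 reads. For Pdgfra it was 0.583 (0.197 to 1.57), from 7 and 13 reads. With so few reads, changes within these intervals were not detectable.

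By mean level, DOX was the highest group for all 7 genes, as the choice of genes had it. The order of the lower pair was 2iL above no DOX for Gata4, Sox17, Foxq1, Foxa2 and Pdgfra and the opposite for Gata6, and Sox7 was at 0 in both. For Sox17, Pdgfra, Foxa2 and Gata6 that order turned on single libraries, while Gata4 and Foxq1 kept it with each library left out. Without 2iL exp1_1 the fitted log2 difference of no DOX from 2iL was 0.87 for Sox17 and 0.20 for Pdgfra, and without 2iL exp2_1 it was 0.66 for Foxa2. It was -0.72 for Gata6 without no-DOX exp2_2, and in experiment 1 alone it was 1.04 for Gata4. Between the 2iL libraries of experiments 2 and 1, none of the 6 fitted genes was called (0 of 6, against 0% of all tested genes, of which 590 had an unadjusted p below 0.05). They held 0 to 8 reads in each of those libraries, so this says little about agreement between experiments.

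Promoter sequence was matched in the RefSeq table for 2 of the 7 genes, Foxa2 (3 starts) and Pdgfra (1 start), on GRCm38.p6. The 250 bases upstream of each start are considered because several of the 7 genes encode DNA-binding factors. That the genes moved together follows from their choice. Motifs were searched on both strands, with AGATAA as the first GATA motif, TGATAA as a further GATA motif, and AGATAG as well as its counterpart TGATAG. The forkhead motif was TGTTTAC, the Sox motif was ACAAT and the Esrrb half-site was AAGGTCA. The only Foxa2 window of the 3 with a match (chr2:148045465-148045714, minus strand) lies within the Foxa2 gene span given above. This window and that of Pdgfra (chr5:75152001-75152250, plus strand) are shown 5′ to 3′, with the motif found in capitals.
Foxa2: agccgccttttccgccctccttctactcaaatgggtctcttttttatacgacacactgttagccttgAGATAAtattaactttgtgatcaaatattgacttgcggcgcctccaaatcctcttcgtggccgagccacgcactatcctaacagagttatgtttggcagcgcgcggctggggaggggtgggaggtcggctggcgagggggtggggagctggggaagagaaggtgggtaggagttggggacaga
Pdgfra: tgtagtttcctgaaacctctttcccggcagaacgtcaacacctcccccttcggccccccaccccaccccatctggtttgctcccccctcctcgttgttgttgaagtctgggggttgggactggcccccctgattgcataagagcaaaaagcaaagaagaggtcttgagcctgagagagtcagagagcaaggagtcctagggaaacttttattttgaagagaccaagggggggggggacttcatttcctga
The Foxa2 window held AGATAA on the strand of the gene, at bases 183 to 178 before the start. AGATAA occurred in 9.99% of 32851 promoter windows of this length, and any of the 4 GATA motifs in 26.5%. The Pdgfra window and the other 2 Foxa2 windows held none of the motifs, of which the Sox motif occurred in 27.7%, the forkhead motif in 3.17% and the Esrrb half-site in 4.08% of all windows. A match is a run of letters and not a shown binding site.

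Genes that act downstream in extraembryonic endoderm were higher with DOX than without DOX at 96 h in many cases. A list of 35 such genes (basement membrane, endocytic receptors and secreted regulators) had 23 tested members, of which 12 were called higher and 1 lower with DOX than without (edgeR, adjusted p below 0.05 over all genes). Across all tested genes 2.16% were called higher and 0.945% lower. The median log2 difference of the list was 1.57, against -0.02 over all tested genes. Without DOX exp1_2, 10 were called higher and 1 lower, and over the fits that left out each library in turn 8 to 12 were called higher. The 13 calls became 15 with DESeq2, 12 with limma-voom and 15 with no filter. Several called members, such as Cyp26a1 and Cubn, passed the filter through the DOX libraries in which they were high, which favours calls on the higher side, so the shares of the list and of all genes are not fully alike.

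The called genes were Cyp26a1, Cubn, Dkk1, Srgn, Amn, Col4a2, Dab2, Col4a1, Nid1, Lama1, Sparc and Nid2 on the higher side and Podxl on the lower side. Nid1 and Nid2 averaged 12.9 and 56.3 CPM with DOX, below their 2iL means of 19.9 and 72.0 CPM. The others on the higher side had higher means with DOX than in 2iL. Cyp26a1, which degrades retinoic acid, averaged 8.08 ± 1.28 CPM with DOX and had 0 reads without (at least 32.4-fold higher, adjusted p = 0.00386). Cubn, the endocytic receptor cubilin of visceral endoderm, averaged 6.04 ± 3.82 CPM with DOX and had 0 reads without (at least 23.4-fold higher, adjusted p = 0.0107). Its call was lost without DOX exp2_1 (adjusted p = 0.083) and without each no-DOX library in turn (adjusted p = 0.0536 to 0.0612). Cyp26a1 and Cubn passed the filter only through their DOX libraries, so their adjusted p-values are given as a description.

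Dkk1, a secreted Wnt antagonist of visceral endoderm, averaged 10.3 ± 3.07 CPM with DOX and 0.169 ± 0.151 CPM without (pooled ratio 62.9, counting interval 17.0 to 527, adjusted p = 0.00541). In 2iL Dkk1 averaged 4.23 ± 4.04 CPM, and the pooled ratio of DOX to 2iL was 2.62 (1.85 to 3.74). Its no-DOX level was called lower than in 2iL (edgeR, adjusted p = 0.00628), where libraries ran from 0.291 to 9.48 CPM. That call was lost in experiment 1 alone (-2.01, adjusted p = 0.437). Calls with DOX lost there included those of Dkk1, Cyp26a1 and Nid2 (adjusted p = 0.0754, 0.0610 and 0.190). Amn lost its call with DOX without no-DOX exp1_1 and without no-DOX exp1_2 (adjusted p = 0.0665 and 0.0521). Srgn, a secreted proteoglycan, averaged 9.08 ± 5.55 CPM with DOX and 0.169 ± 0.151 CPM without (adjusted p = 0.0261). The Srgn call was lost without DOX exp1_2 (adjusted p = 0.0531), without DOX exp2_1 (adjusted p = 0.117) and without each no-DOX library (adjusted p = 0.0914 to 0.118). Sparc, which fibroblasts also make, lost its call without DOX exp1_2 (adjusted p = 0.219). The type IV collagen gene Col4a1, picked out after its values were seen, averaged 185 ± 32.5 CPM with DOX and 15.8 ± 3.74 CPM without (log2 difference 3.55 ± 0.29, adjusted p = 3.89e-07).

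Podxl, a sialomucin, averaged 47.4 ± 26.1 CPM with DOX and 150 ± 58.8 CPM without (-1.62 ± 0.39, adjusted p = 0.0236). That call was lost without no-DOX exp1_1 (adjusted p = 0.0896) and without no-DOX exp2_2 (adjusted p = 0.147). A few serum and carrier protein genes of the list, picked out after their values were seen, did not share one pattern. Afp, a fetal serum protein, had 0 reads in all 10 libraries, which over the 3 DOX libraries allows up to 0.339 CPM. Ttr, a thyroid hormone carrier, had 4 reads in all, each in DOX exp1_2 (2.93 CPM). Rbp4, a retinol carrier, had 0 reads with DOX and averaged 2.17 ± 0.93 CPM without. Apoe, an apolipoprotein, was tested and not called, at 338 ± 101 CPM with DOX and 221 ± 33.2 CPM without (adjusted p = 0.254).

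**Figure D3:**
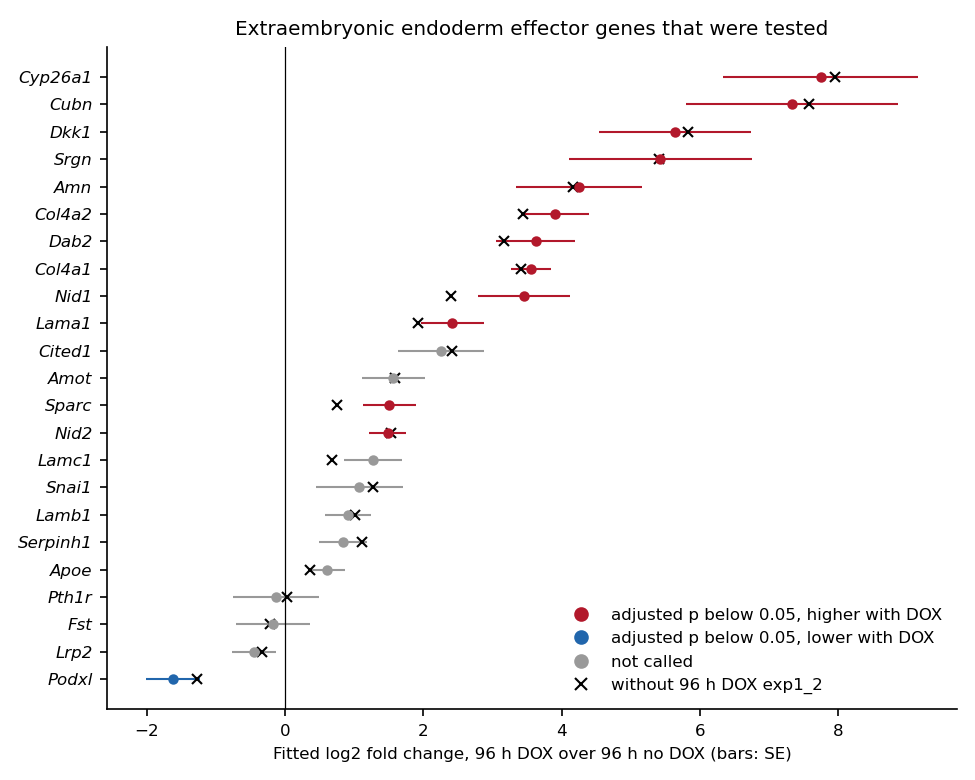
Fitted log2 fold change of 96 h DOX over 96 h no DOX for the 23 tested genes of the extraembryonic endoderm list; points are the fit to all 10 libraries with SE bars, red marks the 12 genes called higher, blue the 1 called lower, and crosses give the fit without 96 h DOX exp1_2. Fits of genes with 0 reads without DOX (Cyp26a1, Cubn) depend on the prior count and are not bounds.

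Removal of 2iL did not move the same list in 1 direction. Of the 23 tested, 8 were called higher and 7 lower in no DOX than in 2iL, against 11.5% and 8.9% of all tested genes (20.4% in either direction). Lrp2, the partner receptor of cubilin, averaged 54.1 ± 19.0 CPM without DOX and 3.61 ± 0.79 CPM in 2iL (3.89 ± 0.35, adjusted p = 9.65e-08). Nid1, a basement membrane protein, averaged 1.07 ± 0.34 CPM without DOX and 19.9 ± 5.75 CPM in 2iL (-4.20 ± 0.64, adjusted p = 5.63e-05).

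No tested relative of the 7 genes by protein family was called with DOX against no DOX. Of 24 GATA, SoxF, forkhead and receptor kinase relatives, 13 were tested and 0 were called by edgeR, DESeq2 or limma-voom. With edgeR, 1 had an unadjusted p below 0.05. At the 3.1% of all tested genes that edgeR called, 0 of 13 says little about the relatives. Foxf2 was below the filter, at 1.09 ± 0.64 CPM with DOX and 0 reads in the other groups. Foxa3, of the same subfamily as Foxa2, averaged 10.1 ± 5.58 CPM with DOX, 6.0 ± 3.16 CPM without DOX and 6.90 ± 3.58 CPM in 2iL (adjusted p = 0.575 for DOX against no DOX). Gata5 had 0 reads throughout. Kit, a receptor related to Pdgfra, was not called with DOX, and averaged 3.06 ± 4.24 CPM without DOX and 37.5 ± 6.74 CPM in 2iL (-3.64 ± 0.64, adjusted p = 3.02e-04). On 2iL removal 5 of the 13 tested relatives, all forkhead genes, were called higher (against 11.5% of all tested genes). They were led by Foxp1 at 159 ± 22.5 CPM without DOX and 17.9 ± 3.68 CPM in 2iL.

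The ligand of Pdgfra behaved otherwise than the receptor. Pdgfa averaged 50.0 ± 13.7 CPM with DOX, 29.9 ± 5.99 CPM without DOX and 276 ± 26.1 CPM in 2iL. The fall on 2iL removal was called (-3.21 ± 0.26, adjusted p = 2.47e-08), and the difference of DOX from no DOX was not (0.75 ± 0.26, adjusted p = 0.138). Pdgfc, a second ligand, averaged 3.81 ± 3.72 CPM with DOX (1.68 CPM without DOX exp1_2), 1.14 ± 0.59 CPM without DOX and 11.7 ± 4.43 CPM in 2iL, and was likewise called lower on 2iL removal (adjusted p = 0.00186). Of the 6 listed ligands and other receptors these 2 were tested. With DOX against no DOX 0 of 2 were called by edgeR, DESeq2 or limma-voom, against 3.1% of all tested genes by edgeR. With edgeR, 1 of 2 had an unadjusted p below 0.05.

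In the FGF and ERK pathway, all 16 listed genes were tested and 1 was called with DOX against no DOX (3.1% of all tested genes were called in either direction). Mapk3, which encodes ERK1, averaged 113 ± 41.4 CPM with DOX and 237 ± 84.0 CPM without (-1.06 ± 0.29, adjusted p = 0.0489). Only 1 of the 10 leave-one-out fits kept that call. The adjusted p reached 0.121 without DOX exp1_2 and 0.282 without no-DOX exp2_2. In 2iL Mapk3 averaged 117 ± 12.4 CPM, and it was called higher on 2iL removal (edgeR, 1.01 ± 0.26, adjusted p = 0.00811). That call was lost without no-DOX exp2_2 (adjusted p = 0.0932). Dusp6 was also called higher on 2iL removal (82.8 ± 16.0 CPM without DOX and 33.9 ± 7.79 CPM in 2iL, adjusted p = 8.0e-04). It was not called with DOX (96.7 ± 22.3 CPM, adjusted p = 0.74). Fgfr2, the FGF receptor of primitive endoderm, was called higher on 2iL removal (13.1 ± 3.00 CPM without DOX and 1.92 ± 2.5 CPM in 2iL, adjusted p = 0.00773) and was not called with DOX (18.7 ± 6.28 CPM, adjusted p = 0.79). Fgf4, the ligand that epiblast cells supply, was called lower on 2iL removal (43.7 ± 5.72 CPM without DOX and 139 ± 37.3 CPM in 2iL).

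On the epiblast side of the lineage choice, 10 epiblast and naive factors were listed and all were tested. With DOX against no DOX 3 were called higher, namely Klf4, Tdgf1 and Bmp4 (against 2.16% of all tested genes). No listed gene was called lower, which says little at the 0.945% of all tested genes that were called lower. Klf4, a naive pluripotency factor, averaged 78.4 ± 21.5 CPM with DOX, 12.9 ± 2.41 CPM without DOX and 234 ± 25.6 CPM in 2iL (2.59 ± 0.27 for DOX against no DOX, adjusted p = 1.18e-05). Nanog, the epiblast counterpart of Gata6, averaged 32.6 ± 16.4 CPM with DOX, 18.3 ± 4.15 CPM without DOX and 219 ± 24.2 CPM in 2iL, and was not called with DOX (0.85 ± 0.31, adjusted p = 0.165).

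Markers of other cell types were set beside the 7 genes because several of these are not exclusive to primitive endoderm. With DOX against no DOX edgeR called 3.1% of all tested genes. At that share, 0 calls among a few tested markers says little about any of these cell types. Among streak and definitive endoderm markers, 12 were in the files and 5 were tested; with DOX against no DOX 0 were called by edgeR, DESeq2 or limma-voom, and 0 had an unadjusted p below 0.05 with edgeR. Their summed level was 13.9 to 29.7 CPM with DOX and 13.8 to 41.5 CPM without DOX, which overlap, and 14.0 to 128 CPM in 2iL. Of 11 trophoblast markers 3 were tested and 0 were called by the 3 tools (0 with an unadjusted p below 0.05). The trophoblast sums were 38.2 to 55.4 CPM with DOX, 31.3 to 50.9 CPM without DOX and 89.1 to 110 CPM in 2iL. Of 12 endothelial and blood markers 3 were tested and 0 were called by the 3 tools (1 with an unadjusted p below 0.05). Their sums did not overlap, at 35.2 to 42.8 CPM with DOX and 22.5 to 24.7 CPM without, and in 2iL they were higher still at 63.8 to 87.3 CPM. Erg, Fli1 and Lyve1 of that list had 0 reads in all 10 libraries, so they do not separate the groups. Kdr and Tie1 stood at 11.7 and 4.40 CPM in DOX exp1_2. They averaged 0.592 and 0.473 CPM in the other DOX libraries and 0.579 and 0 CPM without DOX. Pecam1 and Etv2, the highest of the list, averaged 16.0 and 12.8 CPM with DOX, 9.23 and 8.58 CPM without DOX and 51.8 and 17.5 CPM in 2iL. Of the 11 fibroblast markers 3 were tested and 0 were called by the 3 tools (1 with an unadjusted p below 0.05). The part of these cell types in the levels of the 7 genes was not tested.

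**Figure D4:**
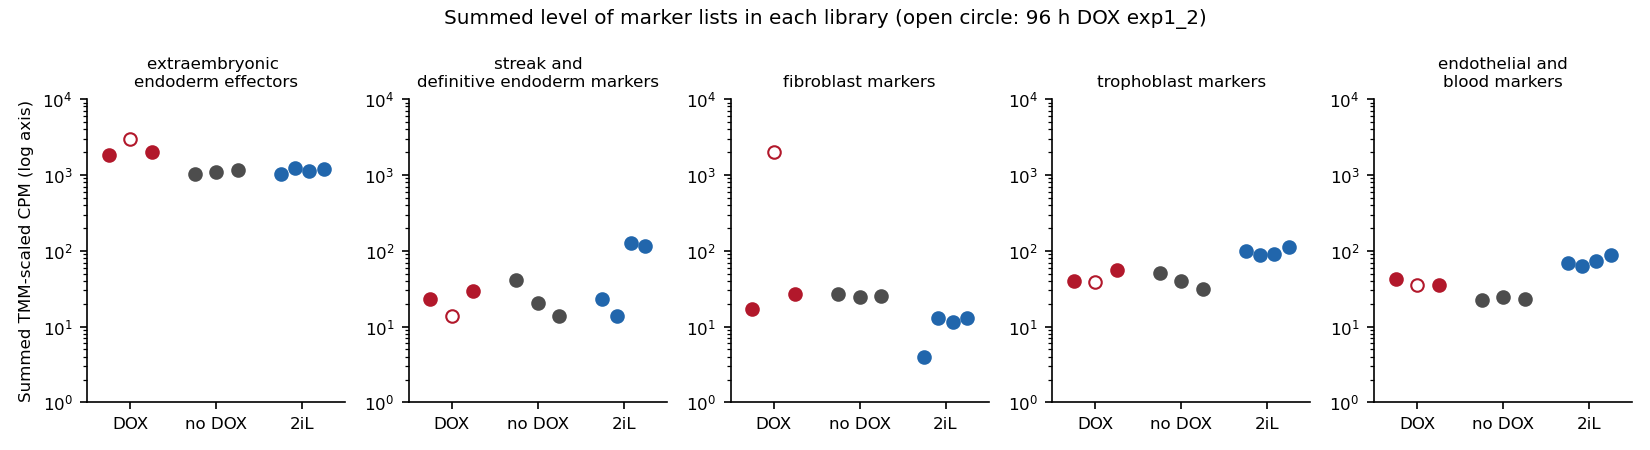
Summed level of 5 marker lists in each library, in TMM-scaled CPM on a log axis; points are libraries and the open circle is 96 h DOX exp1_2. The extraembryonic endoderm list lies at 1837 to 3009 CPM with DOX and 1033 to 1165 CPM without, the fibroblast list reaches 2005 CPM in 96 h DOX exp1_2, and the streak list overlaps between DOX and no DOX.

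Across the 10 libraries the 6 fitted genes varied together, with Pearson r on log2(CPM + 1) from 0.789 (Gata6 with Foxa2) to 0.948 (Gata6 with Foxq1). These values share libraries, depth and the step between groups, and are a description. Among other tested genes, those most like the mean profile of the 6 were Tnnt3 (r = 0.979), Slc44a3 (r = 0.976), Pvalb (r = 0.975), Nostrin (r = 0.974), Tinagl1 (r = 0.967) and Gdpd5 (r = 0.962). Pvalb, which encodes the calcium-binding protein parvalbumin, averaged 27.5 CPM with DOX, 0.195 CPM without DOX and 0.0765 CPM in 2iL. Nostrin, which encodes an adaptor of nitric oxide synthase traffic, averaged 22.4 CPM with DOX, 0.0975 CPM without DOX and 0 in 2iL. Foxq1 alone was matched best by Aard (r = 0.983), Cyp26a1 (r = 0.982) and Nostrin (r = 0.978), and Pdgfra alone by Tnnt3 (r = 0.960), Tinagl1 (r = 0.959) and Slc44a3 (r = 0.955).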

How the data were processed

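Per the labels, polyA RNA of the cells was sequenced from its 3′ ends in 10 libraries. Per the submitters' processing notes, STAR 2.6.0a, HTSeq, bcl2fastq and mm10 were used, while the sources used here state neither the annotation release nor the use of strand. The deposited read counts per gene were used for all values (31053 IDs, 30934 with a symbol in the reference table). The 5 summary lines of each file, which name no gene, held 62.7% to 68.4% of reads and were left out. Positions came from GENCODE on GRCm38 and promoter sequences from RefSeq on GRCm38.p6.

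edgeR 4.0.16 in R 4.3.3 fitted a robust quasi-likelihood model by group to all 10 libraries after filterByExpr (minimum count 10), which left 11215 genes, with TMM scaling. A call needed an adjusted p (Benjamini-Hochberg over all tested genes) below 0.05. Mean ± SD is over TMM-scaled CPM. Pooled ratios carry exact 95% counting intervals, and with 0 reads a floor of 3 reads over the group gives a bound. SE is the size of the fold change divided by the root of the F statistic. The test was run on simulated data first. DESeq2 1.42.0, limma 3.58.1 (voom), other scalings and filters, blocks and each library left out were alternatives.

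The 7 genes, the lists and the tests were chosen with earlier results of these data known, so no list is independent evidence. For no DOX against 2iL no p is given for the 7 genes, as the choice of genes used those no-DOX libraries. From each list, values were to be given for called genes with the largest fold change (up to 4 per direction and contrast), relatives and genome neighbours. Results of a list of other endoderm transcription factors are not reported here. Likeness used Pearson r on log2(CPM + 1), giving the top 6 for the mean profile and the top 3 for Foxq1 and Pdgfra. Libraries with the same experiment and number did not all deviate together (r from -0.10 to 0.20), so numbers were not taken to pair them.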

Additional observations from a re-analysis of the deposited data

Results flagged for a closer look

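In 2iL, Sox17 stood at 2.32 CPM in exp1_1, from 7 reads, against 0.291, 0.306 and 0 CPM in the other 3 libraries. The highest library of this group of 4 was far from the nearest of the others relative to the range of the group. For normally distributed values chance alone gives about 1 such group in 20, a rate that need not hold for so few reads. It is not adjusted for the number of groups looked at. The library's counting interval covers counting error only. The DOX libraries (7.34 to 8.26 CPM) lay above it.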

How the results depend on the processing

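The 6 fitted genes kept a positive difference of DOX from no DOX and from 2iL in each of 20 alternatives, and Foxq1 kept a negative difference of no DOX from 2iL in each of 19. For these genes every DOX library lay above every other library. Foxq1 had 0 reads in every no-DOX library and some in every 2iL library. The signs were therefore largely fixed by the choice of genes and are no check of it. The genes called with DOX against no DOX numbered 348, and 564 with no filter, 563 with DESeq2, 212 with only the 2 compared groups, 95 in experiment 1 alone and 161 to 358 with each library left out (161 without no-DOX exp1_1, 181 without no-DOX exp2_2). With the experiment as a replicate block the count was 347, and with a replicate block of both experiment and number it was 159, of which 156 were shared with the 348. For no DOX against 2iL the count was 2289, and 1208 in experiment 1 alone (1779 to 2717 with each library left out). No count of calls is given for the 7 genes there, as their choice used those no-DOX libraries. That comparison in only its 2 groups tested none of the 7. For DOX against 2iL the count was 1870, and 897 in experiment 1 alone. Between the 2iL libraries of experiments 2 and 1 it was 0, and 19 with no filter and 0 to 16 with each library left out. The mean of Sox17 with DOX was 7.72 CPM, and 8.21 CPM without the TMM factor and 8.31 CPM with totals that leave out Gm42418 and mitochondrial genes. Apart from lower counts in fits with fewer libraries or genes, the cause of these moves was not tested. Read depth limits every level below the floor of 3 reads, which was 0.710, 2.20 and 0.918 CPM in DOX libraries exp1_1, exp1_2 and exp2_1.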
